A study of Homo sapiens with 17 samples.

Results

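The 8 translation elongation factor genes EEF1A1, EEF1A2, EEF1B2, EEF1D, EEF1E1, EEF1G, EEF2 and EEF2K were followed through an acRIP-seq experiment in HEK293T cells, a transformed human embryonic kidney line. They were chosen by name, as the rows of the deposited count table that carry these symbols, and are 8 of the 23368 genes in that table. In acRIP-seq, poly(A) RNA is incubated with an antibody against N4-acetylcytidine (ac4C), and the RNA that stays on the beads is sequenced. Cells labelled WT and cells labelled siTDP43, which were treated with siRNA against the RNA-binding protein TDP43 (gene TARDBP), were each sequenced 3 ways: before any pull-down (input), after pull-down by the ac4C antibody (IP) and after pull-down by a nonspecific immunoglobulin (IgG). Of the 6 groups, WT IgG had 2 libraries and the others 3, which made 17. The labels name no control siRNA for the WT group and no time after transfection. The siRNA is a transient treatment of 1 cell line, and nothing in the labels says that replicates came from separate cultures, so p-values measure the spread between these libraries, which may be technical. Any difference of batch between the WT and the siTDP43 libraries cannot be told apart from the treatment.

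Translation elongation adds amino acids to a growing protein one codon at a time. EEF1A1 and its paralog EEF1A2, which is best known from neurons and muscle, are GTPases that deliver aminoacyl-tRNA to the ribosome. The exchange complex built from EEF1B2, EEF1D and EEF1G reloads EEF1A with GTP, EEF2 moves the ribosome along the mRNA, and EEF2K is the kinase that phosphorylates EEF2 and slows elongation. EEF1E1 (also called AIMP3 or p18) resembles part of EEF1G but works as a scaffold of the multi-synthetase complex. Several of these mRNAs are among the most abundant in dividing cells, and some have been copied back into the genome many times as processed pseudogenes.

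In the hg19 positions of the table, EEF1A1 lay on the minus strand at chr6:74225473-74230755 and EEF1A2 on the minus strand at chr20:62119366-62130505. EEF1B2 was on the plus strand at chr2:207024318-207027653, EEF1G on the minus strand at chr11:62327073-62341460, and EEF1D on the minus strand of chromosome 8. EEF1E1 was on the minus strand at chr6:8073593-8102828, EEF2 on the minus strand at chr19:3976054-3985461 and EEF2K on the plus strand at chr16:22217592-22300066. All counts were over exons, untranslated regions included. GENCODE annotated 49 pseudogenes named after EEF1A1, of which 45 were processed, 8 each after EEF1B2, EEF1D and EEF1G, 1 after EEF1E1 and none after EEF1A2, EEF2 or EEF2K. Of all these only EEF1DP3, an unprocessed copy of EEF1D, had a row of its own, with 0 to 18 counts per library. The other row named EEF was EEFSEC, the selenocysteine elongation factor, with 14 to 1119 counts. Exact copies were then sought for every window of the members' spliced exons in the rest of the genome. For EEF1A1, 47.3% of windows of 50 bases and 30.9% of windows of 150 bases had an exact copy elsewhere. EEF1G had more, 66.7% at 50 bases and 45.9% at 150 bases, and EEF1B2 had 49.3% and 15.1%. EEF1A2 and EEF2 had none at any length, and no window was shared between any pair of the 8 members. Since only uniquely aligned reads were counted, reads from the copied parts of EEF1A1, EEF1B2 and EEF1G could be lost or placed on a pseudogene, and the levels of these 3 genes are uncertain to that extent. EEF1E1 shared 458 exon bases, 36.8% of its own, with the read-through row EEF1E1-MUTED, and EEF1G shared 56 with MIR3654; both of those rows had 0 counts in all 17 libraries.

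**Figure D1:**
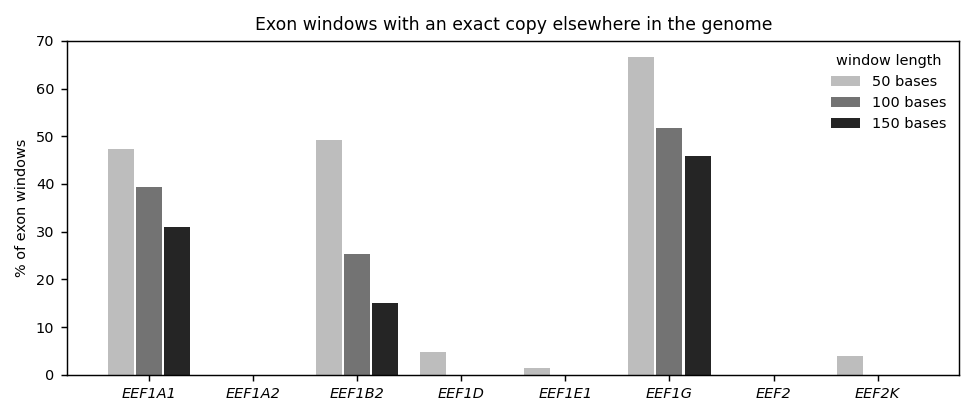
Share of exon windows (y axis, %) of each of the 8 genes that had an exact copy elsewhere in hg19, for windows of 50, 100 and 150 bases. EEF1G, EEF1A1 and EEF1B2 stand out at every length, from 66.7, 47.3 and 49.3% at 50 bases to 45.9, 30.9 and 15.1% at 150 bases, while EEF1A2 and EEF2 have none.

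EEF1A1 was also a transcript that the study measured by qPCR after pull-down, so the sites of its primer pair are shown with the nearest stretch of EEF1A2 exons, with mismatches in capitals. All are written 5′ to 3′ along the transcript, and each site lies within 1 exon.
EEF1A1 forward primer: tgtcgtcattggacacgtaga
EEF1A2 at that site: CgtGgtcatCggCcacgtGga
EEF1A1 site of the reverse primer: ggataaactgaaagctgagcgt
EEF1A2 at that site: ggaCaaGctgaaGgcGgagcgt
The forward site was at chr6:74229700-74229720 and the reverse site at chr6:74229183-74229204 in hg19. The EEF1A2 stretches, at chr20:62129067-62129087 and chr20:62127332-62127353, differed from them at 5 and 4 positions. The forward sequence had 6 exact sites in the genome, of which 5 were in EEF1A1 pseudogenes, and the reverse sequence had 9, of which 8 were in EEF1A1 pseudogenes. The primer sites therefore set EEF1A1 apart from EEF1A2 but not from all of the copies of EEF1A1.

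mRNAs of the translation machinery often begin with a C followed by a run of pyrimidines, the 5′ terminal oligopyrimidine (TOP) motif through which mTOR signaling controls their translation. The 20 bases before and the 10 bases after the RefSeq start are shown for the 6 members found in the RefSeq promoter table (GRCh38.p14), with the pyrimidine run that opens the transcript in capitals.
EEF1A1 (minus strand, chr6:73521023-73521052): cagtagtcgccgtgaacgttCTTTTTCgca
EEF2 (minus strand, chr19:3985454-3985483): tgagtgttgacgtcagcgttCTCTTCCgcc
EEF1B2 (plus strand, chr2:206159875-206159904): attttccggtctcttcgggtCCTTTTTCCT
EEF1G (minus strand, chr11:62573882-62573911): ccttctctcccgggcggcttactttgcggc
EEF1E1 (minus strand, chr6:8102539-8102568): gttcttgttctgcaggtctcgcgtctgcca
EEF2K (plus strand, chr16:22206258-22206287): gcccctgcccgcccgcttctgctcaaccta
A C at the first base with a pyrimidine run of at least 5 bases, read on the sense strand, was found for EEF1A1, EEF2 and EEF1B2, with runs of 7, 7 and 16 bases. A further annotated start of EEF1B2 had no such run. Of 35116 promoters in the table, 1429 (4.07%) had one. EEF1G, EEF1E1 and EEF2K did not at their annotated first base.

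Total counts were 24542434 to 36583436 in the input libraries and 3013989 to 21066215 in the pull-downs, lowest in siTDP43 IgG. The 8 members together took 1.498% ± 0.0646 (SD, n = 3) of the counts of WT input, and the WT pull-downs gave them 0.688% ± 0.0362 (IP, n = 3) and 1.24% ± 0.0652 (IgG, n = 2). The siTDP43 shares were 1.40% ± 0.0725 for input, 1.34% ± 0.0940 for IP and 1.14% ± 0.0354 for IgG (n = 3 each), so WT IP stood lowest. TARDBP itself was at 153 ± 3.87 CPM (counts scaled to library size) in WT input and 102 ± 3.67 CPM in siTDP43 input (n = 3 each), a log2 fold change of -0.57 (adjusted p = 6.55e-13), and every siTDP43 input was below every WT input. VIM, CDH2, KRT8 and KRT18, expressed in HEK293T cells, were at 21.6 CPM or more in every input. All 4 differed between siTDP43 and WT input, with log2 fold changes of -1.58 for VIM, -2.30 for KRT8, -0.54 for KRT18 and 0.95 for CDH2, and the part of this in the members' differences was not tested. PAX2, also a marker expected in HEK293T cells, was low, at most 1.37 CPM in the inputs. PTPRC and COL1A2 were at 0 in the inputs, and CD3E and ALB did not pass 0.171 CPM.

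In WT input the members ranged over more than 3 orders of magnitude, from EEF1G to EEF2K. Levels of different genes were compared per length, as RPKM (CPM divided by exon length). The order was EEF1G (2081 ± 75.6 RPKM), EEF1A1 (1558 ± 139), EEF2 (1068 ± 18.8), EEF1B2 (1042 ± 23.5), EEF1D (170 ± 5.71), EEF1E1 (66.8 ± 3.39), EEF1A2 (7.42 ± 0.923) and EEF2K (1.14 ± 0.0771), each SD over n = 3. Only EEF2 and EEF1B2, neighbors in that order, overlapped between libraries. The rank of EEF1G above EEF1A1 rests on exon lengths of 1538 and 3512 bases. Before division by length EEF1A1 was the higher, at 5472 CPM against 3201 CPM. Both genes have many exact copies elsewhere, so their levels are uncertain. In siTDP43 input EEF1A1 came first (2255 ± 127 RPKM) and EEF1G second (1817 ± 65.9), EEF1B2 (893 ± 30.6) stood above EEF2 (522 ± 36.9), and EEF1A2 was last (0.499 ± 0.221), below EEF2K (1.44 ± 0.0998), with no overlap between neighbors.

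**Figure D2:**
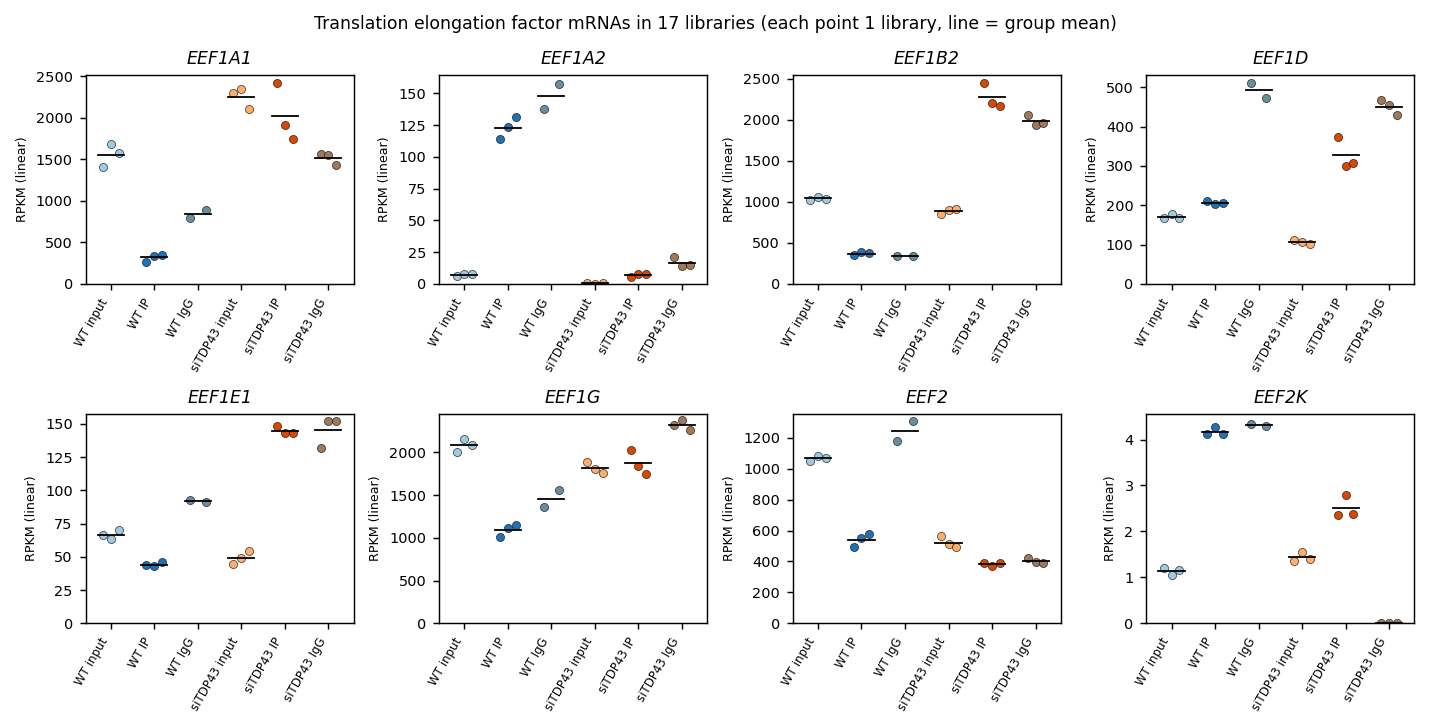
RPKM (linear y axes starting at 0) of each member in the 17 libraries, by group on the x axis; each point is 1 library and the line is the group mean. EEF1A2 is high in the WT pull-downs (114 to 157 RPKM) and low in every siTDP43 library, and EEF2K is at 0 in the 3 siTDP43 IgG libraries.

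The input comparison asked how the mRNA levels of the elongation factors differed between siTDP43 and WT cells. EEF1A1 and EEF2K were higher in siTDP43 input and the other 6 members were lower, with the largest difference in EEF1A2 and the next in EEF2. All 8 passed an adjusted p of 0.05. Calls were common in this comparison: of the 14036 genes tested, 38.6% were higher and 40.6% lower, 79.2% in all. The median log2 fold change was -0.32 over the members and -0.05 over all genes. The share of all genes whose siTDP43 and WT input libraries did not overlap was not counted. In bulk RNA, fewer cells that express a gene and less of its RNA per cell cannot be told apart.

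EEF1A1 was at 4948, 5914 and 5554 CPM in WT input and at 8090, 8257 and 7413 CPM in siTDP43 input. All siTDP43 libraries were above all WT libraries, and the log2 fold change was 0.54 (SE 0.0450, adjusted p = 2.68e-12). EEF1A2, the other gene for the same delivery step, went the opposite way. It had 11.7, 14.4 and 14.9 CPM in WT input (355, 564 and 524 counts) and 1.01, 0.475 and 1.28 CPM in siTDP43 input (32, 12 and 36 counts). The groups did not overlap, and the level was 14.5-fold lower in siTDP43 (log2 fold change -3.86, SE 0.201, adjusted p = 2.37e-17) and 13802 of the 14036 genes tested had a higher value. The exons of EEF1A2 are 64.8% GC, above 95.0% of genes. With a trend on exon GC content removed from each library, the log2 fold change was -2.88 for EEF1A2 and 0.28 for EEF1A1. EEF1A2 was 0.476% ± 0.0323 of EEF1A1 per length in WT input and 0.0225% ± 0.0110 in siTDP43 input (n = 3 each), so EEF1A1 gave nearly all EEF1A mRNA in both.

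EEF2, the translocase, was at 3311, 3428 and 3383 CPM in WT input and at 1779, 1615 and 1554 CPM in siTDP43 input. The fall was 2.04-fold (log2 fold change -1.03, SE 0.0393, adjusted p = 8.90e-21), and the libraries did not overlap. With the GC trend removed EEF2 was still called lower, but the log2 fold change was -0.48. EEF2K, the kinase of EEF2, had 8.96, 7.84 and 8.58 CPM in WT input and 10.1, 11.5 and 10.4 CPM in siTDP43 input. Its rise was small (log2 fold change 0.34, SE 0.122, adjusted p = 0.0130) and was no longer called with total count scaling (adjusted p = 0.0668) or when the second WT input (adjusted p = 0.0724) or the second siTDP43 input (adjusted p = 0.0543) was left out. Per length, EEF2K was 0.107% ± 0.00902 of EEF2 in WT input and 0.276% ± 0.0314 in siTDP43 input.

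Among the exchange factors, EEF1B2 had 1131, 1183 and 1157 CPM in WT input and 953, 1000 and 1019 CPM in siTDP43 input (log2 fold change -0.22, SE 0.0359, adjusted p = 2.48e-06). EEF1G, which anchors the exchange complex, had 3082, 3314 and 3206 CPM in WT input against 2903, 2780 and 2702 CPM (log2 fold change -0.19, SE 0.0354, adjusted p = 1.59e-05). Both falls were under 1.2-fold, although no siTDP43 library reached the lowest WT library. EEF1D, the other exchange subunit, fell more, from 527, 559 and 528 CPM to 354, 335 and 325 CPM (log2 fold change -0.67, SE 0.0402, adjusted p = 9.81e-16). With a trend on exon GC content removed from each library the EEF1D difference turned to 0.37 (adjusted p = 1.84e-11) and that of EEF1G to 0.01 (adjusted p = 0.739); the exons of EEF1D are 65.3% GC, above 95.7% of genes. EEF1E1, the scaffold protein, fell from 78.9 to 87.3 CPM in WT input to 55.1 to 67.7 CPM in siTDP43 input (log2 fold change -0.43, SE 0.0608, adjusted p = 1.66e-07).

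The 3 members with a TOP motif did not move together: EEF1A1 rose, EEF1B2 fell slightly and EEF2 fell 2.04-fold. With the GC trend removed the log2 fold change was 0.28 for EEF1A1 and -0.48 for EEF2. Of 719 tested genes with such a start in the promoter table, 242 were higher and 347 lower in siTDP43 input (all genes: 38.6% higher and 40.6% lower), with a median log2 fold change of -0.20 against -0.05 for all genes tested.

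**Figure D3:**
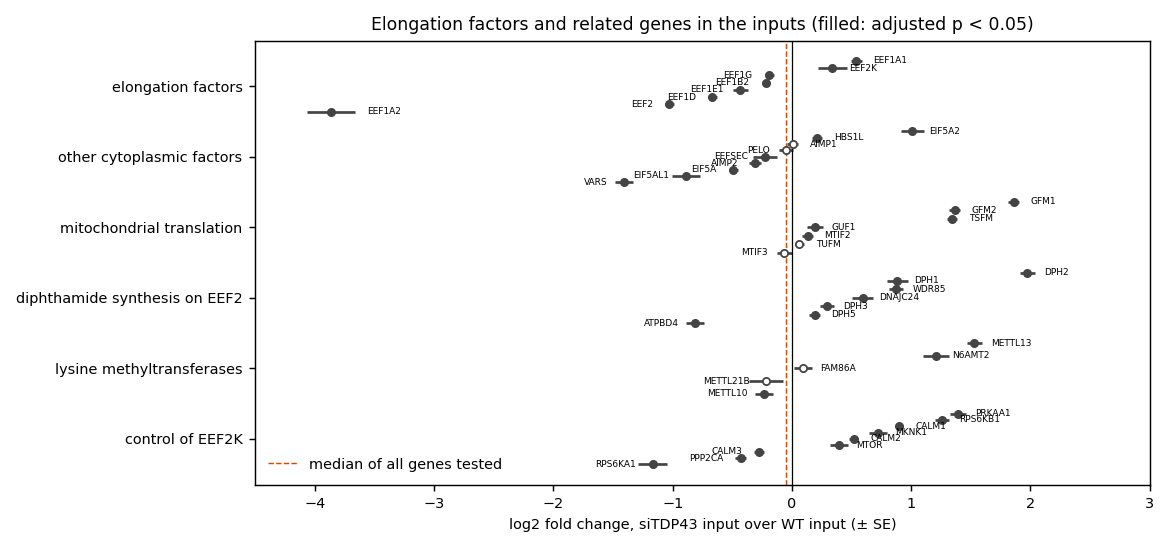
Log2 fold change with its SE (x axis) of the 8 elongation factors and of 37 related genes in siTDP43 input over WT input, 1 row per gene group; filled points passed an adjusted p of 0.05, and the dashed line is the median of all genes tested (-0.05). EEF1A2 lies far to the left at -3.86, and GFM1 (1.86) and DPH2 (1.97) lie farthest to the right.

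Genes that act with the elongation factors were described as 5 lists. Of the 37 genes, all of which were tested, 21 were higher and 10 lower in siTDP43 input (median log2 fold change 0.19, against -0.05 for all genes). Over all genes tested the shares were 38.6% higher and 40.6% lower. The 7 mitochondrial translation genes comprised the elongation factors TUFM, TSFM, GFM1 and GUF1, the recycling factor GFM2 and the initiation factors MTIF2 and MTIF3; 5 were higher and none lower, led by GFM1, the mitochondrial counterpart of EEF2 (log2 fold change 1.86, SE 0.0490, adjusted p = 6.83e-25). Of the 7 genes for diphthamide, the modified histidine of EEF2, 6 were higher, with DPH2 at 1.97 (SE 0.0654, adjusted p = 2.06e-22), and ATPBD4 (DPH6) was lower at -0.81 (SE 0.0753, adjusted p = 3.07e-11). Among 5 lysine methyltransferases of EEF1A and EEF2, 2 were higher and 1 lower; METTL13, which methylates EEF1A, was at 1.53 (SE 0.0623) and METTL10 at -0.23 (SE 0.0771). Of 9 genes that control EEF2K, 6 were higher and 3 lower, with PRKAA1, a catalytic subunit of AMP-activated kinase, at 1.39 (SE 0.0662) and RPS6KA1, the kinase RSK1, at -1.17 (SE 0.120). Among 9 other cytoplasmic factors, which include the EIF5A family and partners of EEF1E1 in the synthetase complex, 2 were higher and 5 lower, with EIF5A2 at 1.01 (SE 0.0973) and the synthetase gene VARS at -1.41 (SE 0.0747).

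The WT pull-down asked which elongation factor mRNAs were richer on the anti-ac4C beads than in the input. Enrichment is relative to the other RNA of a library, and the ac4C-containing β-globin RNA that the study's methods describe adding before acRIP was not used in the scaling here. In the pull-down contrasts a call needed both a fold change above 2 and an adjusted p below 0.05. EEF1A2 and EEF2K were called higher in WT IP than in WT input and EEF1A1 and EEF1B2 lower, while EEF1D, EEF1E1, EEF1G and EEF2 stayed within 2-fold. Over all 14751 genes tested 30.2% were called higher and 27.3% lower, 57.5% in all. The median log2 fold change was -0.76 over the members and 0.01 over all genes.

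EEF1A1 had 935, 1179 and 1243 CPM in WT IP, far below the 4948 to 5914 CPM of WT input (log2 fold change -2.28, SE 0.0792, adjusted p = 2.88e-18). EEF1A2 had 210, 228 and 242 CPM in WT IP against 11.7 to 14.9 CPM in input, 16.6-fold higher (log2 fold change 4.05, SE 0.0822, adjusted p = 1.09e-22). With the GC trend removed EEF1A2 was at 2.49 and EEF1A1 at -1.86. The paralogs thus moved in opposite directions in the same libraries. EEF1B2 fell to 390, 432 and 413 CPM (log2 fold change -1.48, SE 0.0481, adjusted p = 7.53e-19). EEF2K rose to 30.5, 31.7 and 30.5 CPM (log2 fold change 1.88, SE 0.102, adjusted p = 1.80e-14). EEF2 had 1567, 1739 and 1817 CPM, a log2 fold change of -0.98 (SE 0.0520, adjusted p = 1.34e-14), just inside the fold threshold; it passed the threshold without WT IP replicate 3 (-1.01), with no low-count filter (-1.01) and with the GC trend removed (-1.70). EEF1G was at -0.92 (SE 0.0539), EEF1E1 at -0.59 (SE 0.0627) and EEF1D at 0.29 (SE 0.0468). Removing the GC trend put EEF1D at -1.36 and EEF1E1 at 0.14, so the direction of these 2 members over input depended on it, and it made 5 members lower in place of 2.

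The IgG beads carried no ac4C antibody. In WT, 7 of the 8 members, all but EEF1B2, had a lower fitted level in IP than on IgG beads, although for EEF2K the difference did not pass the test. Of all genes tested, 42.0% were lower in this way. EEF2K turned positive (0.0577) with total count scaling, and EEF1B2 turned negative (-0.41) with the GC trend removed. In WT IgG over input, EEF1A2, EEF1D and EEF2K were called higher and EEF1B2 lower (24.4% of the tested genes were higher and 36.6% lower, 61.0% in all; 4637 were higher and 4307 lower with the GC trend removed, in place of 3594 and 5400). EEF1A2 had 255 and 289 CPM in WT IgG, a log2 fold change over input of 4.33 (SE 0.0877, adjusted p = 4.00e-22). EEF2K had 32.2 and 31.9 CPM (log2 fold change 1.95, SE 0.118, adjusted p = 2.05e-13). The members that were enriched on the anti-ac4C beads were therefore also enriched on IgG beads. EEF1D, the subunit that differed little between IP and input, had 1618 and 1495 CPM in WT IgG (log2 fold change 1.56, SE 0.0517, adjusted p = 2.05e-18). EEF1B2 had 373 and 382 CPM (log2 fold change -1.59, SE 0.0566, adjusted p = 8.10e-18).

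Set against IgG, no member was called higher in WT IP and 4 were called lower, where 35.2% of the tested genes were higher and 17.8% lower, 53.0% in all. With the GC trend removed that split of 5186 higher and 2629 lower became 3991 and 4370. The 4 were EEF1A1 (log2 fold change -1.42, SE 0.0838, adjusted p = 2.61e-13), EEF1D (-1.27, SE 0.0517, adjusted p = 2.78e-16), EEF2 (-1.22, SE 0.0570, adjusted p = 3.31e-15) and EEF1E1 (-1.08, SE 0.0721, adjusted p = 2.34e-12). EEF1E1 was close to the threshold and was not called with total count scaling (-0.95) or by a test against a fold of 2 (adjusted p = 0.0967). EEF1A2 was 1.22-fold lower in IP than in IgG (log2 fold change -0.28, SE 0.0774, adjusted p = 0.00195) but was called lower, at -1.47 (adjusted p = 4.02e-14), with the GC trend removed, and EEF2K did not pass (-0.07, SE 0.113, adjusted p = 0.565). The difference of EEF1B2 was 0.10 (SE 0.0544, adjusted p = 0.0802) and that of EEF1G -0.44 (SE 0.0596, adjusted p = 4.60e-07), which became -1.17 and was called with the GC trend removed. Under the rule that IP must pass over both input and IgG, 0 of the 8 members passed in WT cells, where 15.6% of all genes tested did. The count was also 0 by DESeq2 and at an unadjusted p under 0.05 with no fold threshold, since the only positive value over IgG was that of EEF1B2, which was below its input.

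**Figure D4:**
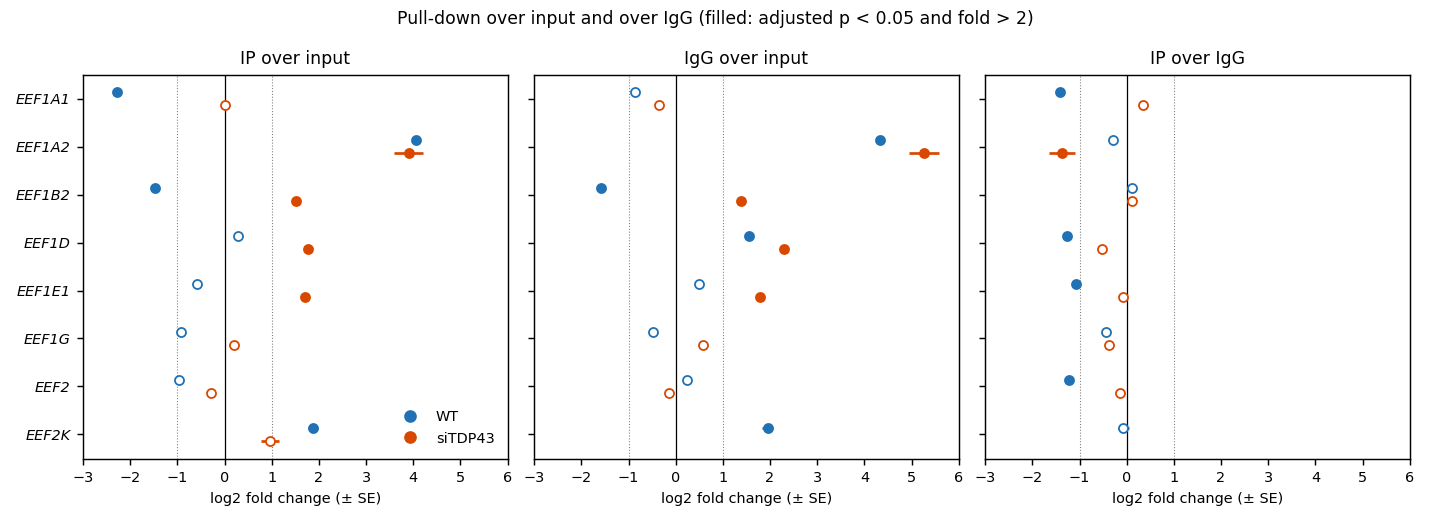
Log2 fold change with its SE (x axis) of each member for IP over input, IgG over input and IP over IgG, in WT (blue) and siTDP43 (orange); filled points passed an adjusted p of 0.05 and a fold change of 2, shown as dotted lines. EEF1A1, EEF1B2 and EEF1E1 shift to the right over input in siTDP43, and no filled point lies to the right of 1 over IgG; EEF2K against siTDP43 IgG is left out because IgG had 0 counts.

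In siTDP43 cells the same comparison gave another picture. EEF1A2, EEF1B2, EEF1D and EEF1E1 were called higher in IP than in input and no member was called lower (26.8% of the 12746 tested genes were higher and 25.4% lower, 52.2% in all; total count scaling gave 2771 higher and 4327 lower in place of 3414 and 3239). The median was 1.23 over the members and -0.09 over all genes. EEF1B2 had 2717, 2447 and 2412 CPM in siTDP43 IP against 953 to 1019 CPM in input (log2 fold change 1.504, SE 0.0536, adjusted p = 9.99e-17). EEF1E1 had 185, 178 and 179 CPM against 55.1 to 67.7 CPM (log2 fold change 1.71, SE 0.0865, adjusted p = 5.18e-14). EEF1D had 1184, 948 and 971 CPM against 325 to 354 CPM (log2 fold change 1.77, SE 0.0691, adjusted p = 4.99e-16). None of these 3 overlapped its input, but the share of all genes that separated in this way was not counted. With the GC trend removed EEF1D was at 0.14 (adjusted p = 0.0385) and no longer called. EEF1A2 rose from its low input level to 10.03, 13.9 and 14.2 CPM (135, 137 and 114 counts; log2 fold change 3.90, SE 0.307, adjusted p = 1.15e-10), which is about the level it had in WT input. The log2 fold change of EEF1A2 was 2.40 with the GC trend removed.

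EEF1A1, the member that was lowest on the WT beads relative to input, had 8478, 6736 and 6112 CPM in siTDP43 IP and overlapped its input (7413 to 8257 CPM). Its log2 fold change was -0.003 (SE 0.0730, adjusted p = 0.973), and its sign changed with the setting. EEF1G had 3117, 2834 and 2690 CPM and also overlapped its input (log2 fold change 0.20, SE 0.0508, adjusted p = 0.00126; -0.14 with total count scaling). EEF2 was at 1230, 1180 and 1233 CPM, below input (log2 fold change -0.29, SE 0.0567, adjusted p = 9.45e-05). EEF2K had 17.5, 20.8 and 17.7 CPM, 1.95-fold above input (log2 fold change 0.97, SE 0.197, adjusted p = 0.000163).

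Control IgG from siTDP43 cells took up the same members. EEF1A2, EEF1B2, EEF1D and EEF1E1 were called higher in siTDP43 IgG than in input and EEF2K lower, where 24.7% of the tested genes were higher and 41.0% lower, 65.7% in all. The split of 3145 higher and 5227 lower became 4437 and 3742 with the GC trend removed and 2365 and 6420 with total count scaling. EEF1B2 had 2292, 2154 and 2182 CPM in siTDP43 IgG (log2 fold change over input 1.38, SE 0.0539, adjusted p = 3.34e-16; 0.84 and not called with total count scaling). EEF1E1 had 165, 189 and 189 CPM (log2 fold change 1.79, SE 0.0923, adjusted p = 5.61e-14), and EEF1D had 1479, 1439 and 1355 CPM (2.30, SE 0.0709, adjusted p = 4.79e-18; 0.84 and not called with the GC trend removed). EEF1A2 was at 38.9, 26.3 and 27.8 CPM (log2 fold change 5.27, SE 0.320, adjusted p = 9.83e-13). EEF2K had 0 counts in each of the 3 siTDP43 IgG libraries, against 332 and 310 counts in WT IgG. With 3 counts per library as the floor, the EEF2K level there was at least 9.44-fold lower than in siTDP43 input. The siTDP43 IgG libraries were the shallowest, at 3013989 to 3436811 counts, and the EEF2K level that this floor allows averaged 1.13 CPM.

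Over IgG, 1 member was called higher and 1 lower in siTDP43 IP (34.0% of the tested genes were higher and 15.0% lower, 49.0% in all; the 4328 and 1913 became 3044 and 3978 with the GC trend removed). EEF2K was at least 16.6-fold higher in IP than in IgG (fitted adjusted p = 1.32e-09). EEF1A2 was lower (log2 fold change -1.37, SE 0.270, adjusted p = 0.000112), which did not pass a test against a fold of 2 (adjusted p = 0.0701). EEF1A1 was 1.27-fold higher in IP than in IgG (log2 fold change 0.34, SE 0.0734, adjusted p = 0.000257), and EEF1B2 was 1.09-fold higher (0.12, SE 0.0530, adjusted p = 0.0478). Both turned negative, to -0.64 and -0.63, with the GC trend removed. EEF1D was at -0.54 (SE 0.0681), EEF1G at -0.38 (SE 0.0512), EEF2 at -0.15 (SE 0.0577) and EEF1E1 at -0.08 (SE 0.0904, adjusted p = 0.451). Of the 8 members, 0 passed over both input and IgG in siTDP43 cells, where 10.3% of all genes tested did: EEF2K missed the fold of 2 over input, and the 4 members that passed over input did not pass over IgG. DESeq2 gave 0 as well. At an unadjusted p under 0.05 with no fold threshold 2 members passed both, EEF1B2 and EEF2K, and EEF2K passed the rule itself in each of the settings that took it past a fold of 2 over input: without siTDP43 IP replicate 1 (log2 fold change 1.02) or 3 (1.002), without siTDP43 input replicate 2 (1.02), with a mean of at least 50 counts required (1.05) and with the GC trend removed (1.07).

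Whether the pull-down changed with the knockdown was tested as an interaction over all 17 libraries, which were scaled together, so its values are not exact differences of those above. Calls here needed an adjusted p below 0.05 only. The change of IP over input was higher in siTDP43 for 6 members and lower for 1, where 31.5% of the 15165 tested genes were higher and 36.3% lower, 67.8% in all (3811 and 6593 with total count scaling, in place of 4770 and 5511). The median change was 1.15 over the members and -0.19 over all genes. The largest was that of EEF1B2 (log2 change 2.84, SE 0.0764, adjusted p = 6.23e-28), followed by EEF1E1 (2.15, SE 0.111, adjusted p = 3.16e-19) and EEF1A1 (2.13, SE 0.118, adjusted p = 2.52e-18). EEF1D (1.34, SE 0.0892, adjusted p = 7.13e-16), EEF1G (0.97, SE 0.0791, adjusted p = 1.81e-13) and EEF2 (0.54, SE 0.0787, adjusted p = 1.79e-07) changed the same way by less. EEF2K was the exception, with a fall of -1.06 (SE 0.198, adjusted p = 1.65e-05). For EEF1A2, whose input differed most between genotypes, the change was -0.32 (SE 0.276, adjusted p = 0.308), an estimate that rests on 12 to 36 counts per siTDP43 input library. Its change became -0.62 (adjusted p = 0.0467) with total count scaling.

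Against IgG the changes were of other sizes. Here 5 members were higher and 1 lower, with 34.9% of genes tested higher and 25.9% lower, 60.8% in all (4229 and 4893 with the GC trend removed, in place of 5293 and 3923). The median change was 0.93 over the members and 0.24 over all genes. EEF1A1 had a change of 1.82 (SE 0.123, adjusted p = 1.28e-15), EEF2 of 1.13 (SE 0.0838, adjusted p = 1.60e-14), EEF1E1 of 1.06 (SE 0.122, adjusted p = 1.12e-09) and EEF1D of 0.79 (SE 0.0944, adjusted p = 2.35e-09). The change of EEF2K was at least 4.10, since IgG of siTDP43 had 0 counts. EEF1A2 fell (-1.05, SE 0.212, adjusted p = 3.90e-05). EEF1B2, with the largest change over input, had one of 0.07 over IgG (SE 0.0809, adjusted p = 0.531), and EEF1G had 0.11 (SE 0.0841, adjusted p = 0.287); both turned negative with DESeq2 size factors (-0.16 and -0.12). The direction of EEF1E1 also depended on the setting, at -0.31 with the GC trend removed. In that setting EEF1A1 was at 0.92, EEF1D at 1.26 and EEF2 at 1.30, and the median of all genes was -0.07. The 2 changes share the IP libraries, and the contrasts over input and over IgG share libraries within each genotype, so they are not independent of each other.

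Ratios between members within a library do not depend on the scaling between libraries. They can still carry a library's GC trend, which was not removed from them. Exon GC is 42.5% for EEF1A1, 64.8% for EEF1A2, 59.9% for EEF2, 48.7% for EEF1B2 and 54.7% for EEF1G. EEF1A2 per EEF1A1 was 0.476% in WT input, 38.9% ± 3.38 in WT IP (n = 3) and 17.6% ± 0.126 in WT IgG (n = 2). In siTDP43 it was 0.0225% in input, 0.354% ± 0.114 in IP and 1.11% ± 0.222 in IgG (n = 3 each), above input in both pull-downs of both genotypes. EEF1B2 per EEF1G, 2 subunits of one complex, was 0.501 ± 0.00696 in WT input and 0.492 ± 0.0343 in siTDP43 input. The ratio was 0.340 ± 0.0147 in WT IP and 0.234 ± 0.0182 in WT IgG but 1.22 ± 0.0238 in siTDP43 IP and 0.858 ± 0.0393 in siTDP43 IgG. The inputs overlapped, whereas both pull-downs moved down from input in WT and up from input in siTDP43. EEF2 per EEF1A1 was 0.689 ± 0.0507 in WT input and 0.232 ± 0.0136 in siTDP43 input. In the pull-downs it was 1.71 ± 0.134 and 1.48 ± 0.0123 in WT IP and IgG and 0.194 ± 0.0316 and 0.268 ± 0.00893 in siTDP43 IP and IgG.

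**Figure D5:**
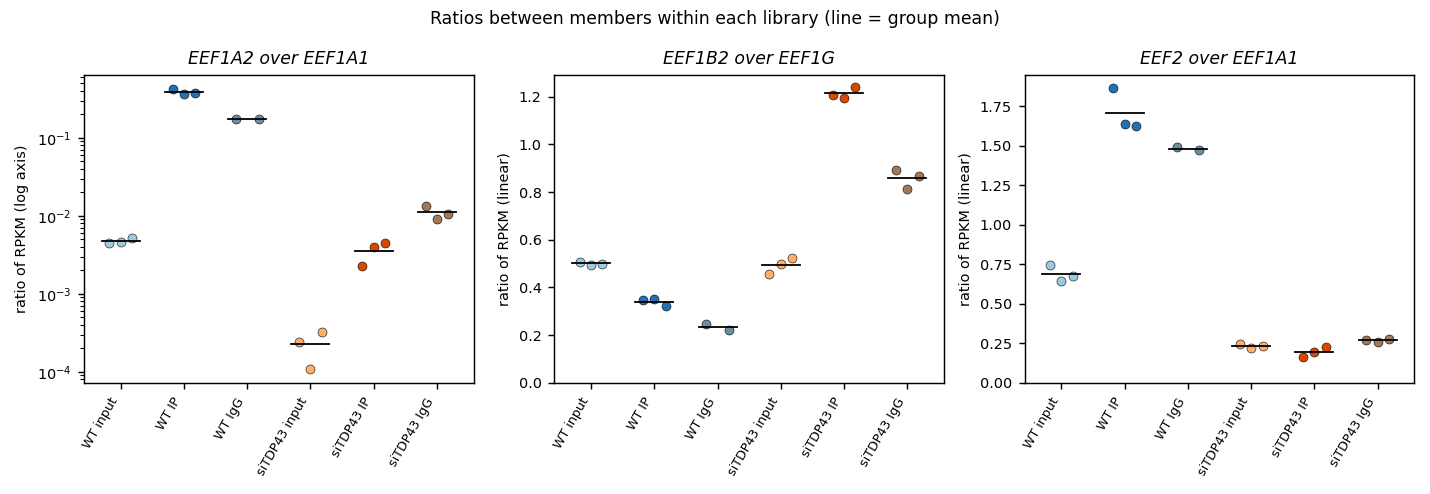
Ratio of RPKM between members within each library (y axis; log axis for EEF1A2 over EEF1A1, linear axes from 0 for EEF1B2 over EEF1G and EEF2 over EEF1A1), by group; points are libraries and lines are group means. EEF1B2 over EEF1G is near 0.5 in both inputs, below it in the WT pull-downs and at 0.858 to 1.22 in the siTDP43 pull-downs.

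Per length, the order of the members also differed between the beads. In WT IP the order was EEF1G (1092 RPKM), EEF2 (541), EEF1B2 (371), EEF1A1 (319), EEF1D (207), EEF1A2 (123), EEF1E1 (44.2) and EEF2K (4.17), with overlap only between EEF1B2 and EEF1A1. In siTDP43 IP it was EEF1B2 (2275 RPKM), EEF1A1 (2024), EEF1G (1873), EEF2 (385), EEF1D (327), EEF1E1 (145), EEF1A2 (6.89) and EEF2K (2.52). There EEF1A1 overlapped both EEF1B2 and EEF1G, and EEF2 overlapped EEF1D.

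The genes whose profile over the 6 groups was most like that of EEF1A1 were FAM96A, LMBRD1 and PSMA3, with root mean square differences of 0.13, 0.15 and 0.19 on the log2 CPM scale after each gene's own mean was removed. Those most like EEF2 were ACSF2, EFNA1 and FANCB, at 0.10, 0.14 and 0.17. Both searches covered 10133 genes with a mean of at least 100 counts. Among the members, EEF1G was nearest to EEF1A1, at 0.68, and to EEF2, at 0.80. EEF1A2 was farthest from both, at 3.46 and 2.46. The best matches of so large a search are close by selection. Setting the few members beside them therefore does not show whether the members moved together.

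The 37 related genes were also set against the pull-down. In WT IP over input 2 were called higher and 17 lower, with 30.2% and 27.3% of all tested genes called in these directions. The 17 included 6 of the 7 mitochondrial translation genes, all but the initiation factor MTIF2. WT IgG over input had 6 higher and 18 lower, beside 24.4% and 36.6% of all tested genes, with 4 mitochondrial genes among the lower. In WT IP over IgG 8 were higher and 7 lower, beside 35.2% and 17.8%, with 1 mitochondrial gene among the lower. For siTDP43 IP over input 3 were called higher and 11 lower, beside 26.8% and 25.4% of all tested genes. The change of IP over input was higher in siTDP43 for 16 and lower for 11, beside 31.5% and 36.3%. ATPBD4 had the largest rise (log2 change 3.65, SE 0.210, adjusted p = 9.56e-18) and DPH1 fell by 2.48 (SE 0.313, adjusted p = 1.44e-08), both in diphthamide synthesis. Among the mitochondrial genes GFM2, which acts in ribosome recycling, rose most (1.51, SE 0.163, adjusted p = 2.60e-10). Among the other cytoplasmic factors AIMP2, a scaffold partner of EEF1E1, rose by 1.74 (SE 0.200) and EIF5A fell by 0.78 (SE 0.0798). RPS6KA1 rose by 1.33 (SE 0.184) and PRKAA1 fell by 0.67 (SE 0.191) among the genes that control EEF2K. Of the methyltransferases N6AMT2 rose by 1.36 (SE 0.289), and METTL21B was called lower, with 130 to 203 counts in WT IP and 0 to 2 counts in siTDP43 IP. Over IgG the change was higher for 18 of the 37 and lower for 13, beside 34.9% and 25.9% of all tested genes. There ATPBD4 stayed higher and GFM2 was not called (-0.20). DPH1 was called higher over IgG, the opposite of its change over input, with 0 counts in all 3 siTDP43 IgG libraries.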

How the data were processed

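Poly(A) RNA of 17 HEK293T libraries was measured by acRIP-seq with Smart-seq2 libraries. Pull-down RNA was too dilute to be quantified and went into the libraries by volume, unlike input RNA. According to the study's methods and submitters' notes, reads were trimmed with Trim Galore 0.6.7, aligned to hg19 with STAR 2.7.10a, and unique alignments were counted per gene with featureCounts 2.0.2. The deposited table holds the authors' raw counts with no normalization. The strand setting, the handling of mates and the annotation release were not given in the sources used here. Of the genes with 1 to 20 counts, 81.3 to 95.9% had an even count, so counts halved were tried; no molecular identifiers were used, and errors cover counting and the spread between libraries. No library duplicated another (chi-square per degree of freedom 3.26 to 9.43). Groups and replicate numbers came from the titles.

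CPM and RPKM were computed with TMM scaling over all 17 libraries and the table's exon lengths. Counts were tested in R 4.3.3 with the edgeR 4.0.16 quasi-likelihood F test (two-sided, filterByExpr with a minimum count of 10), Benjamini-Hochberg over all genes tested, in the 6 inputs, the 8 WT, the 9 siTDP43 or all 17 libraries. The study's methods name DESeq2, which was run as an alternative (1.42.0). Alternatives also covered scaling, low-count filters, GC content, halved counts, the replicate block, 1 joint fit, glmTreat and leaving out each library. Fits were tested on simulated data in which few genes changed, as many up as down. This differs from the data here, so the simulation could not check the scaling. All 8 members are named, with other rows that start with EEF or overlap a member's exons, TARDBP, 5 lists of related genes (counts, and per list the largest called rise and fall) and the 3 genes nearest to EEF1A1 and EEF2. Members and lists were chosen with earlier results of these data known. Floors were 3 counts per library. Exon sequence for 23346 genes came from the GRCh37 genome, whose 24 chromosomes held all positions of the table; pseudogenes came from GENCODE.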

Additional observations from a re-analysis of the deposited data

Results flagged for a closer look

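The interaction test found a difference between siTDP43 and WT in the enrichment of 7 members over input and 6 over IgG. Over input the log2 changes were 2.13 for EEF1A1, 2.84 for EEF1B2, 1.34 for EEF1D, 2.15 for EEF1E1, 0.97 for EEF1G, 0.54 for EEF2 and -1.06 for EEF2K. Over IgG they were 1.82 for EEF1A1, -1.05 for EEF1A2, 0.79 for EEF1D, 1.06 for EEF1E1, 1.13 for EEF2 and at least 4.10 for EEF2K, the last because its IgG counts were 0 in siTDP43. Genotype differed by this test for 67.8% of all genes over input and for 60.8% over IgG. No group had enough libraries to test a single library as an outlier, but each library was left out in turn, as given below.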

How the results depend on the processing

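Each member's value in each contrast was recomputed under the alternatives. Of 696 such values under other settings, 657 kept their direction and their side of the threshold, 7 lost the call, 11 gained it and 21 changed sign. Of 728 with 1 library left out, the counts were 719, 2, 4 and 3.

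Removing the GC trend changed most. It turned EEF1D (0.37) and EEF1G (0.0107) in the input contrast, EEF1D (-1.36) and EEF1E1 (0.14) in WT IP over input, EEF1B2 in WT IP over IgG (-0.41), and EEF1A1 in siTDP43 IP over input (0.32) and IgG over input (0.95). It also turned EEF1A1 (-0.64) and EEF1B2 (-0.63) in siTDP43 IP over IgG and EEF1B2 (-0.36) and EEF1E1 (-0.31) in the change over IgG. It made 5 members lower in WT IP over input, 6 in WT IP over IgG (EEF1A2 at -1.47 and EEF1G at -1.17 were added), 2 in siTDP43 IP over IgG and 3 in the change over IgG. In IgG over input it added EEF1E1 in WT (1.24) and EEF1G in siTDP43 (1.12) as higher. In the input contrast it shrank EEF1A2 (-2.88), EEF2 (-0.48) and EEF1A1 (0.28) and enlarged EEF1E1 (-0.73), all still called. It also shrank EEF1A2 over input in WT IP (2.49), WT IgG (3.97), siTDP43 IP (2.40) and siTDP43 IgG (3.95). Over all genes it moved the median of IP over IgG from 0.29 to -0.22 in WT and from 0.33 to -0.36 in siTDP43, and the calls from 5186 higher and 2629 lower to 3991 and 4370 in WT and from 4328 and 1913 to 3044 and 3978 in siTDP43.

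Total count scaling turned EEF2K in WT IP over IgG (0.0577), EEF1G in siTDP43 IP over input (-0.14), and EEF1E1 (0.13) and EEF2 (0.0647) in siTDP43 IP over IgG. EEF1B2 lost its call in siTDP43 IgG over input (0.84). The same scaling left 1 member higher in the input contrast and made 2 lower in the change over input, and it moved the median of siTDP43 IP over input from -0.09 to -0.43 and of siTDP43 IgG over input from -0.58 to -1.13. The change over IgG of EEF1B2 and EEF1G was -0.16 and -0.12 by the DESeq2 Wald test and by its size factors in edgeR, and the Wald test gave 2 members lower. EEF1A1 in siTDP43 IP over input became 0.0081 with halved counts and 0.0798 with the filter at a mean of 50 counts; it ranged from -0.13 to 0.0978 when single libraries were left out and was above 0 without siTDP43 IP replicate 2, IP replicate 3 or input replicate 2. With glmTreat, 0 members were lower in siTDP43 IP over IgG. Leaving out single libraries gave 1 to 2 members higher in the input contrast, EEF2K being lost without WT input replicate 2 or siTDP43 input replicate 2. The cause of these shifts was not tested.

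The labels reuse replicate numbers across groups. Residuals of same-numbered libraries correlated at -0.03 to 0.08 over 40 pairs, so the numbers were not used as pairs. With the replicate number as a block, all members kept their calls and directions, and the input contrast had 5376 genes higher and 5643 lower in place of 5414 and 5699.

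Depth limits EEF1A2 in siTDP43 input, with 12 to 36 counts per library, and EEF2K in siTDP43 IgG, with 0. WT IgG had 2 libraries. Read pairs that lie wholly within exact genomic copies of EEF1A1, EEF1B2 and EEF1G cannot be placed uniquely. The study sequenced paired reads, so pairs that reach outside a copy may still be placed. The shares of copied windows are therefore not shares of lost reads.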
